A study of Sus scrofa with 6 samples.

Results

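The DNAJ (HSP40) genes encode co-chaperones that share a J domain, and 44 of the 29861 genes in the deposited expression table carry a name beginning with DNAJA, DNAJB or DNAJC and a number. All 44 were taken by name alone, under a rule set with earlier results of these data known. They comprise 4 DNAJA, 13 DNAJB and 27 DNAJC genes. RNA was sequenced from porcine oocytes of 3 groups, with 2 samples in each. Control oocytes were matured at the usual temperature, heat-stressed oocytes spent the first 24 h of maturation at a raised temperature, and NMN-supplemented oocytes had nicotinamide mononucleotide (NMN), a precursor of NAD+, in the medium during the same heat stress. All oocytes came from abattoir ovaries, were matured in vitro as cumulus-oocyte complexes and were sequenced in pools, so no value belongs to one animal. The NMN concentration of the sequenced group is not given in the sources used here. The labels give the germinal vesicle (GV) stage and 24 h for every sample, whereas the methods of the study name metaphase II oocytes. The stage behind these values is therefore given in 2 ways. By the methods, heated oocytes went back to the usual temperature after the heat stress and were cultured on to the stage studied. Whether the values stem from the end of the heating or from after this return is therefore not known. The labels number the samples but do not say that they came from separate collections, so the P-values given here measure the spread between these samples, which may be technical.

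J-domain proteins deliver unfolded clients to HSP70 and make it hydrolyse ATP, after which nucleotide exchange factors release the client. DNAJA proteins carry a glycine/phenylalanine-rich stretch and a zinc-binding domain behind the J domain, DNAJB proteins have the stretch but no zinc-binding domain, and DNAJC proteins share little beyond the J domain and serve single tasks in many compartments. In somatic cells, heat shock factor HSF1 raises DNAJB1 and the inducible HSP70 genes together when proteins unfold. A maturing oocyte is nearly silent in transcription and lives on stored maternal mRNA.

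The stretch upstream of the annotated start is shown for DNAJB1 and DNAJB4, whose expression the results turn on, and for DNAJB6, which holds a complete heat shock element. Each sequence is the 250 bases before the outermost RefSeq gene start in the Sscrofa11.1 build, read 5′ to 3′ on the strand of the gene. Capitals mark the fixed bases of heat shock element units and the letters of a CCAAT box, which reads ATTGG on the other strand.
DNAJB1 (chr2:64761422-64761671, plus strand): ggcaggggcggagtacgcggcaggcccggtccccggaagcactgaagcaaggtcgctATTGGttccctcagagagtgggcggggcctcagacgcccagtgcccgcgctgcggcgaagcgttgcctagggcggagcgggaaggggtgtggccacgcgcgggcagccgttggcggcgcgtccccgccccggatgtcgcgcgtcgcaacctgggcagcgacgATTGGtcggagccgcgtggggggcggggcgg
DNAJB4 (chr6:135281377-135281626, minus strand): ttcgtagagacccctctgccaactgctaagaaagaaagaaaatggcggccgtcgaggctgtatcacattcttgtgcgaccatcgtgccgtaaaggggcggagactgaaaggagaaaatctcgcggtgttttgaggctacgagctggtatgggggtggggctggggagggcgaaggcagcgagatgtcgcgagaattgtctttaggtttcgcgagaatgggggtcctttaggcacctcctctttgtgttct
DNAJB6 (chr18:1499905-1500154, minus strand): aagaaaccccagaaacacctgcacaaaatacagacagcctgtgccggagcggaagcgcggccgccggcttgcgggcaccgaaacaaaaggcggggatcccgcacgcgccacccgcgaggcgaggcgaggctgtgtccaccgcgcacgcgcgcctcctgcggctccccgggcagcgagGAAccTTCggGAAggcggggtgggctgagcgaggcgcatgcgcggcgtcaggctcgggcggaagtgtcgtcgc
A pair of adjoining units reads GAANNTTC or TTCNNGAA, both of which read the same on either strand, and a complete element joins them into 3 units in a row, so every complete element also holds both pairs. A complete element was found upstream of DNAJB6 and DNAJB14 among the 44 members, and upstream of 67 of the 20631 protein-coding genes of the table that were placed (0.325%). At least 1 pair of units was found upstream of 9 members (20.5%), against 2204 of the 20631 genes (10.7%). These 9 were DNAJA1, DNAJA4, DNAJB6, DNAJB8, DNAJB12, DNAJB14, DNAJC5G, DNAJC9 and DNAJC14. Neither motif was found in the 250 bases of DNAJB1 or DNAJB4. The upstream bases of DNAJB1 hold the CCAAT box letters at 2 places, those of DNAJB4 at none, and 32.0% of all these windows hold them. Such matches describe the letters of a window and do not show a bound site.

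The authors deposited expression as FPKM, by definition the number of fragments per kilobase of transcript, scaled to the mapped fragments of the sample. Levels of different members can therefore be compared. Whether the values were also scaled between samples is not stated in the sources used here. Read counts were not used here, the depth behind each value is unknown, and in pooled oocytes fewer oocytes holding an mRNA and less of it per oocyte cannot be told apart. Of the 44 members, 15 (34.1%) had a mean of 1 FPKM or more over the 6 samples, against 4713 of all 29861 genes (15.8%). The 15 were DNAJA1, 5 DNAJB genes (DNAJB1, DNAJB2, DNAJB4, DNAJB6 and DNAJB9) and 9 DNAJC genes (DNAJC7, DNAJC8, DNAJC9, DNAJC14, DNAJC15, DNAJC18, DNAJC21, DNAJC27 and DNAJC30). The lowest mean inside this limit was 1.1 FPKM for DNAJC18, and the highest outside it was 0.907 FPKM for DNAJA2. The median of the mean FPKM was 0.719 over the 4 DNAJA, 0.304 over the 13 DNAJB and 0.498 over the 27 DNAJC genes. Every subfamily held more members below 1 FPKM than above it. The table lists 18 members at a locus together with other genes, 5 of them among the 15, and their FPKM are less certain because overlapping genes may share fragments.

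A group of 3 genes made up most of the DNAJ mRNA. DNAJA1, the main cytosolic class A partner of HSP70, had 54.6 and 55.4 FPKM in the control samples, 53.7 and 62.9 FPKM in the heat-stressed samples, and 64.4 and 62.2 FPKM in the NMN-supplemented samples. It ranked 156 among all genes by its mean. DNAJC9, a J protein that also chaperones histones, had 27.6 and 31.8 FPKM in the control samples, 36.0 and 26.9 FPKM after heat stress, and 24.6 and 25.8 FPKM after heat stress with NMN. Its heat-stressed samples lay on both sides of the control samples, and both NMN-supplemented samples lay below all 4 others. DNAJB1, the classical stress-inducible HSP40, was the third, and together the 3 genes took between 67.8% and 70.5% of the summed FPKM of the family in every sample.

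**Figure D1:**
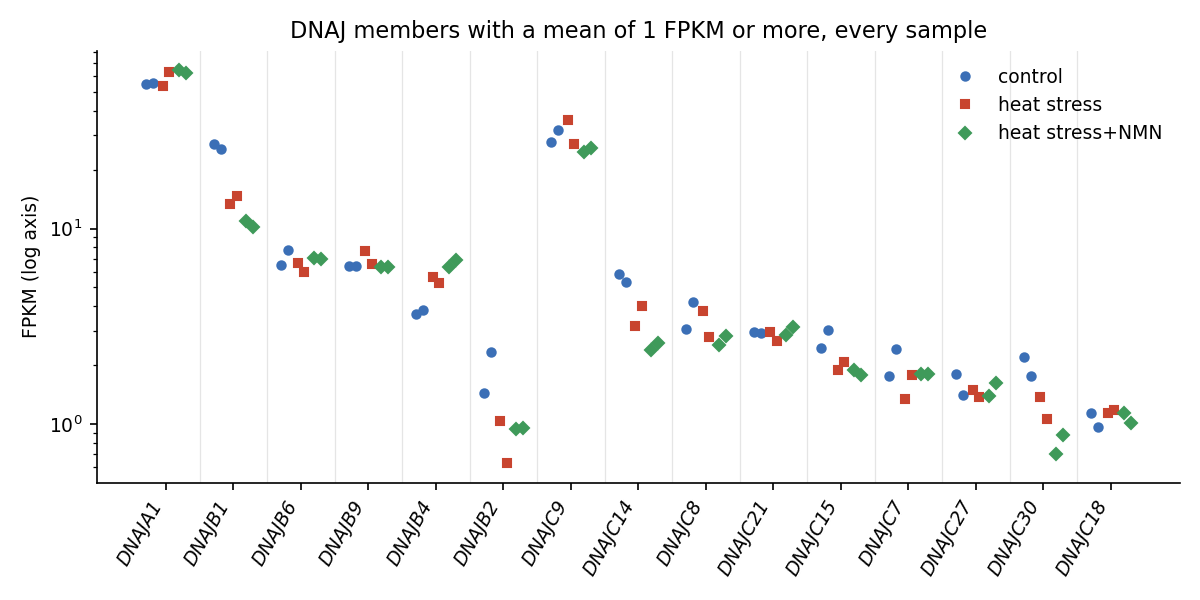
FPKM (log axis) of the 15 DNAJ members with a mean of 1 FPKM or more, ordered by subfamily and by mean level, with 1 point per sample (circles control, squares heat stress, diamonds heat stress+NMN). DNAJB1 stepped down from 27.1 to 10.2 FPKM across the groups and DNAJB4 stepped up from 3.66 to 6.87 FPKM and DNAJA1 was the highest member in every sample.

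DNAJB1 and DNAJB4, close relatives that both serve cytosolic HSP70 in refolding, moved in opposite directions when oocytes were heated. DNAJB1 lies on chromosome 2 from 64761672 to 64764482, alone at its locus. Its expression was 27.1 and 25.4 FPKM in the control samples, 13.4 and 14.7 FPKM after heat stress, and 10.9 and 10.2 FPKM after heat stress with NMN. The 3 groups did not overlap, with control highest and NMN-supplemented oocytes lowest. From 26.3 ± 1.15 FPKM in the control group, DNAJB1 fell to 14.0 ± 0.917 FPKM with heat stress (SD, n = 2 each). Log2 fold changes throughout are on the log2(FPKM + 1) scale, which understates those of low genes. That of DNAJB1 was −0.86 (SE 0.11), at 0.534 times its control mean in FPKM. It had an unadjusted P under 0.05, the threshold used for a change throughout, but an adjusted P = 0.111 (limma). Its P ranked 9 among the 4713 genes tested in that comparison. With NMN it was 10.5 ± 0.534 FPKM (SD, n = 2), and it again passed the threshold as lower than without NMN (log2 fold change −0.38, SE 0.11, limma adjusted P = 0.327).

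DNAJB4 lies on chromosome 6 from 135243927 to 135281376, also alone at its locus. It had 3.66 and 3.82 FPKM in the control samples, 5.62 and 5.28 FPKM after heat stress, and 6.36 and 6.87 FPKM after heat stress with NMN. Every heat-stressed sample was above both control samples, and both NMN-supplemented samples were above all others. DNAJB4 rose with heat stress by a log2 fold change of 0.44 (SE 0.11, limma adjusted P = 0.134). The further difference of 0.24 with NMN did not pass the threshold (SE 0.11, limma adjusted P = 0.383, 95% interval −0.033 to 0.51). The ratio of DNAJB1 to DNAJB4 within a sample does not depend on the scaling of that sample. It was 7.39 and 6.66 in the control samples, 2.38 and 2.78 after heat stress, and 1.72 and 1.48 after heat stress with NMN. Because DNAJB1 stepped down and DNAJB4 stepped up without overlap, their ratio had to separate the 3 groups, so this is no further result. DNAJB1 stayed above DNAJB4 in each of the 6 samples.

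**Figure D2:**
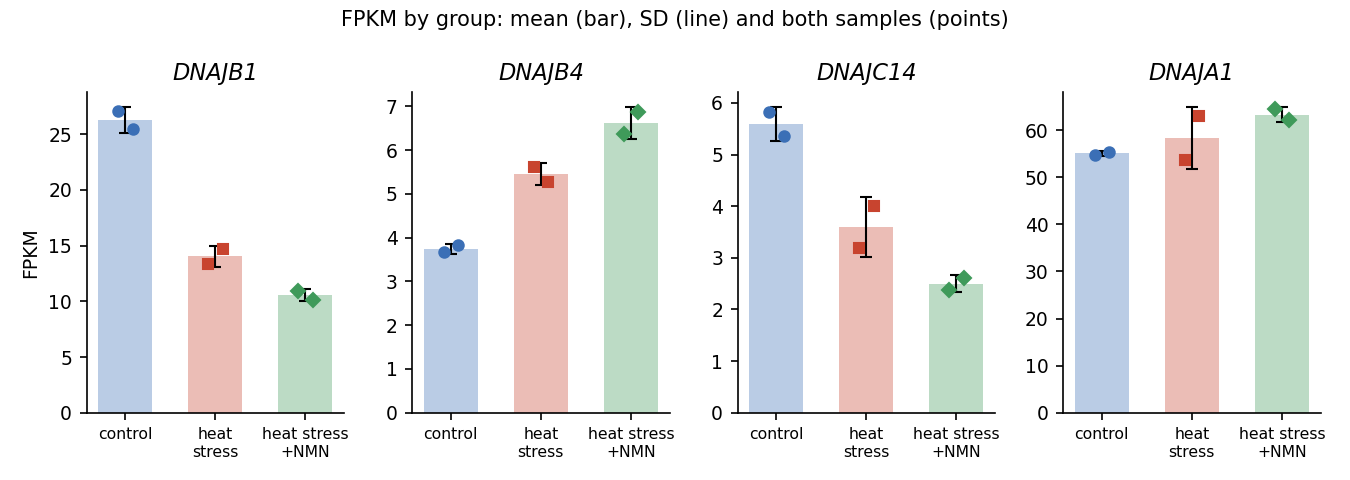
FPKM of DNAJB1, DNAJB4, DNAJC14 and DNAJA1 by group, with bars for the mean, lines for the SD and points for the 2 samples of each group; each panel starts at 0 and has its own scale. DNAJB1 and DNAJC14 went down from control through heat stress to heat stress+NMN and DNAJB4 went up, without overlap between groups, whereas the heat-stressed samples of DNAJA1 spread from 53.7 to 62.9 FPKM around its control samples.

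With heat stress alone, 5 of the 15 members tested had an unadjusted limma P under 0.05, 1 higher and 4 lower with heat stress. Over all 4713 genes tested, the share with an unadjusted P under 0.05 was 22.8%, with 12.7% higher and 10.1% lower. Among the members these shares were 33.3% in all and 26.7% lower. By subfamily, 0 of 1 DNAJA, 3 of 5 DNAJB and 2 of 9 DNAJC genes passed. The count with an adjusted P under 0.05 was 0 for the members and 0 for all genes. The median log2 fold change was −0.11 over the 15 members and 0.049 over all genes. DNAJB4 was the gene that rose, and DNAJB1, DNAJB2, DNAJC14 and DNAJC30 were the genes that fell. In 8 of the 15 members the control and heat-stressed samples did not overlap, 3 higher and 5 lower with heat stress, against 54.7% of all genes, 31.6% higher and 23.2% lower.

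Among the cytosolic members, DNAJB2, which carries ubiquitin-interacting motifs and hands clients to the proteasome, had 1.44 and 2.33 FPKM in the control samples, 1.03 and 0.632 FPKM after heat stress, and 0.946 and 0.960 FPKM after heat stress with NMN. All 4 heated samples lay below both control samples. DNAJB2 fell with heat stress by 0.65 on the log2(FPKM + 1) scale (SE 0.20, limma adjusted P = 0.168), to 0.442 times its control mean in FPKM. It no longer passed the threshold without control replicate 2 (log2 fold change −0.42) or heat-stressed replicate 2 (−0.49). DNAJB6, which keeps aggregation-prone proteins soluble, had 6.54 and 7.73 FPKM in control against 6.67 and 5.96 FPKM in heat-stressed and 7.06 and 7.01 FPKM in NMN-supplemented oocytes. Its heat-stressed and control samples overlapped (log2 fold change −0.15, 95% interval −0.47 to 0.16). Its upstream bases are those printed above with the complete heat shock element. DNAJC7, which binds both HSP70 and HSP90, had 1.75 and 2.43 FPKM in the control samples, 1.35 and 1.79 FPKM after heat stress, and 1.81 and 1.80 FPKM after heat stress with NMN, with a log2 fold change of −0.26 with heat stress (95% interval −0.67 to 0.14). For DNAJA1 the log2 fold change was 0.078 (95% interval −0.22 to 0.38).

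Of the members at the endoplasmic reticulum, DNAJC14, a membrane protein known for the export of a dopamine receptor, had 5.82 and 5.35 FPKM in the control samples, 3.19 and 4.01 FPKM after heat stress, and 2.38 and 2.61 FPKM after heat stress with NMN, without overlap between any of the groups. It passed the threshold both with heat stress (log2 fold change −0.52, SE 0.14, limma adjusted P = 0.137) and with NMN (log2 fold change −0.39, SE 0.14, limma adjusted P = 0.352). DNAJC14 lies on chromosome 5 from 21264438 to 21273235, at a locus listed for 4 further genes. One of these, ORMDL2, had 2.25 and 1.57 FPKM in the control samples, 6.78 and 3.0 FPKM after heat stress, and 2.24 and 2.58 FPKM after heat stress with NMN, and its part in the values of DNAJC14 was not tested. DNAJB9, a co-chaperone of BiP in the lumen that the unfolded protein response raises in many cells, had 6.46 and 6.43 FPKM in the control samples, 7.64 and 6.55 FPKM after heat stress, and 6.36 and 6.38 FPKM after heat stress with NMN. The heat-stressed samples lay above both control samples, one of them narrowly, and the log2 fold change of 0.12 did not pass the threshold (95% interval −0.17 to 0.41). DNAJC18, another membrane protein of this compartment, had 1.14 and 0.969 FPKM in the control samples, 1.14 and 1.18 FPKM after heat stress, and 1.14 and 1.02 FPKM after heat stress with NMN.

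The mitochondrial members above the limit were DNAJC30 and DNAJC15. DNAJC30, which associates with the respiratory chain and ATP synthase, had 2.21 and 1.77 FPKM in the control samples, 1.38 and 1.06 FPKM after heat stress, and 0.703 and 0.874 FPKM after heat stress with NMN. The groups followed each other downwards without overlap. DNAJC30 fell with heat stress by 0.43 on the log2(FPKM + 1) scale (SE 0.15, limma adjusted P = 0.188), to 0.613 times its control mean in FPKM. It no longer passed the threshold without control replicate 1 (log2 fold change −0.32) or heat-stressed replicate 2 (−0.33). DNAJC15, a protein of the inner membrane linked to protein import, had 2.44 and 3.03 FPKM in the control samples, 1.89 and 2.07 FPKM after heat stress, and 1.89 and 1.79 FPKM after heat stress with NMN. All 4 heated samples were below both control samples, but the log2 fold change of −0.32 did not pass the threshold (SE 0.13, limma adjusted P = 0.223). It passed in 4 of 15 alternatives, among them without control replicate 1 (−0.43), and was −0.21 without control replicate 2. Both genes share their listed locus with other genes, 2 for DNAJC30 and 44 for DNAJC15.

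The remaining members above the limit serve splicing, the ribosome and small GTPases, and none of DNAJC8, DNAJC21 and DNAJC27 passed the threshold in any of the 3 comparisons. DNAJC8, a protein associated with the spliceosome, had 3.07 and 4.20 FPKM in the control samples, 3.79 and 2.79 FPKM after heat stress, and 2.53 and 2.84 FPKM after heat stress with NMN. DNAJC21, which takes part in the maturation of the large ribosomal subunit, had 2.95 and 2.92 FPKM in the control samples, 2.97 and 2.65 FPKM after heat stress, and 2.85 and 3.14 FPKM after heat stress with NMN (log2 fold change −0.046 with heat stress, 95% interval −0.33 to 0.24). DNAJC27, which joins a Rab-like GTPase to a J domain, had 1.81 and 1.41 FPKM in the control samples, 1.5 and 1.38 FPKM after heat stress, and 1.40 and 1.62 FPKM after heat stress with NMN. The groups overlapped in all of these genes between heat stress and control. The log2 fold change of DNAJC9 with heat stress was 0.070 (95% interval −0.35 to 0.49), and heat-stressed replicate 1 was the highest of all 6 samples.

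**Figure D3:**
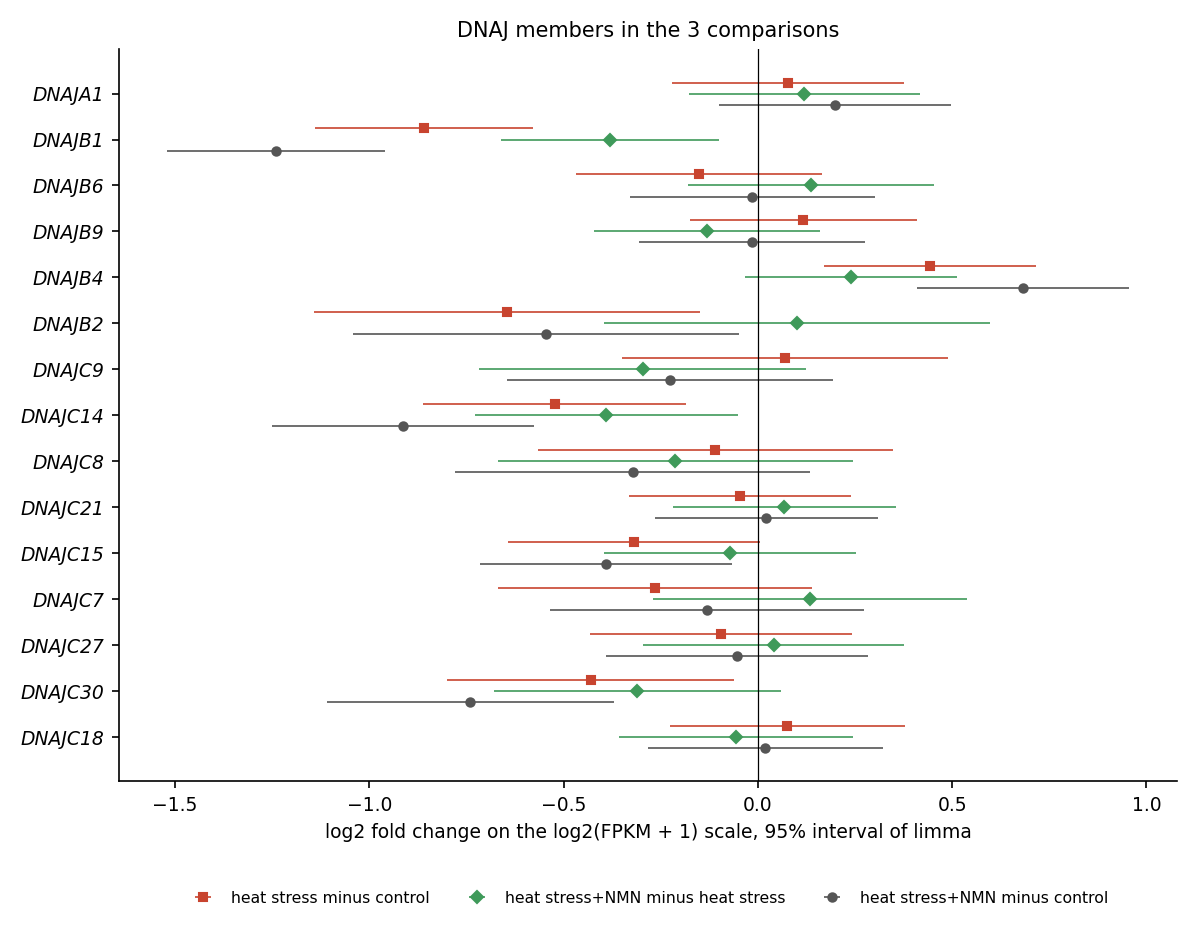
Log2 fold changes of the 15 tested DNAJ members on the log2(FPKM + 1) scale in the 3 comparisons (squares heat stress minus control, diamonds heat stress+NMN minus heat stress, circles heat stress+NMN minus control), with 95% intervals from limma. DNAJB1 and DNAJC14 lie to the left of 0 in all 3 comparisons, and DNAJB4 lies to the right, with an interval that reaches 0 for heat stress+NMN minus heat stress.

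Whether NMN returned the family towards its control level was asked by comparing NMN-supplemented with heat-stressed oocytes. Of the 15 members, 2 had an unadjusted limma P under 0.05, DNAJB1 and DNAJC14, both of them lower with NMN, against a share of 13.6% of all genes tested (7.15% higher and 6.45% lower). None of the members, and none of all genes, had an adjusted P under 0.05. Both genes had already been lower in heat-stressed than in control oocytes, and the heat-stressed samples enter both comparisons. The calls depended on the samples and on the scaling. DNAJB1 no longer passed the threshold without heat-stressed replicate 2 (log2 fold change −0.32) or NMN-supplemented replicate 2 (−0.33). DNAJC14 no longer passed it without heat-stressed replicate 2 (−0.26), NMN-supplemented replicate 1 (−0.34) or NMN-supplemented replicate 2 (−0.44). Neither passed it when every sample was scaled to the same FPKM sum over nuclear genes (−0.33 for DNAJB1 and −0.35 for DNAJC14). That sum left out LOC100513953, which took 13.9% of the FPKM of heat-stressed replicate 1. In 9 members the samples of these groups did not overlap, 3 higher and 6 lower with NMN, against 53.5% of all genes, 35.9% higher and 17.6% lower.

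No member that passed the threshold as lower with heat stress passed it as higher with NMN. DNAJB2 had a log2 fold change of 0.10 with NMN (95% interval −0.40 to 0.60) and DNAJC30 of −0.31 (95% interval −0.68 to 0.059). DNAJC9 had a log2 fold change of −0.30 (SE 0.17, limma adjusted P = 0.423), which passed the threshold without heat-stressed replicate 2 (−0.50) and after quantile normalization (−0.40). Without heat-stressed replicate 1 it was −0.093. The median log2 fold change over the 15 members was −0.056, against 0.078 over all genes tested.

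NMN-supplemented and control oocytes differed in more members, as they did in more of all genes, in a comparison that shares its samples with the other two. Of the 15 members, 6 had an unadjusted limma P under 0.05, with DNAJB4 higher and DNAJB1, DNAJB2, DNAJC14, DNAJC15 and DNAJC30 lower, against a share of 41.3% of all genes (25.6% higher and 15.7% lower). With an adjusted P under 0.05 there were 4 members, DNAJB1, DNAJB4, DNAJC14 and DNAJC30, against 21.5% of all genes. The log2 fold change of DNAJB1 was −1.24 (SE 0.11, limma adjusted P = 0.0197). That of DNAJC14 was −0.91 (SE 0.14, limma adjusted P = 0.0210) and that of DNAJC30 was −0.74 (SE 0.15, limma adjusted P = 0.0294). DNAJB4 went the other way, at 0.68 (SE 0.11, limma adjusted P = 0.0223). Over the 16 alternatives the unadjusted P of DNAJB1 and DNAJB4 stayed under 0.05, and their adjusted P ranged from 0.00858 to 0.114 and from 0.0192 to 0.116. For DNAJC14 and DNAJC30, which could be fitted in 15 alternatives, the unadjusted P also stayed under 0.05, and the adjusted P ranged from 0.0209 to 0.116 and from 0.0288 to 0.144. The adjusted P of all 4 genes was above 0.05 without control replicate 2 (0.104 for each of them), NMN-supplemented replicate 1 (0.114 to 0.144) or NMN-supplemented replicate 2 (0.0937 to 0.112). With all genes above 0 FPKM in the fit, it was between 0.0619 and 0.101. Without control replicate 1 it was 0.0541 for DNAJB4, 0.0532 for DNAJC14 and 0.0863 for DNAJC30, and at a minimum mean of 0.1 FPKM it was 0.0505, 0.0505 and 0.0587. With the replicate number as a block it was 0.0545 for DNAJC30. DNAJB2 (log2 fold change −0.55) no longer passed the unadjusted threshold without control replicate 2 (−0.32), NMN-supplemented replicate 1 (−0.54) or replicate 2 (−0.55), nor did DNAJC15 (log2 fold change −0.39) without the same 3 samples (−0.28, −0.42 and −0.37). DNAJB2 also missed it with a pseudocount of 0.1 FPKM (−0.88), with the replicate block and under quantile normalization (−0.48), and DNAJC15 after nuclear-sum scaling (−0.38). In 10 members the samples of these groups did not overlap, 2 higher and 8 lower with NMN, against 69.9% of all genes, 43.5% higher and 26.4% lower.

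The subfamilies were compared by the FPKM summed over all their members in each sample. The DNAJB sum was 47.7 and 47.9 FPKM in the control samples, 35.6 and 34.2 FPKM after heat stress, and 32.9 and 32.4 FPKM after heat stress with NMN. All 4 heated samples were below both control samples, with a difference of −12.9 FPKM between heat-stressed and control oocytes (from 47.8 ± 0.164 to 34.9 ± 0.960, SD, n = 2 each, exact permutation P = 0.333, two-sided, the smallest that 2 against 2 samples can give). With NMN the difference was −2.25 FPKM to heat-stressed and −15.1 FPKM to control oocytes, with the same exact permutation P. Without DNAJB1, the sum of the other 12 DNAJB genes was 20.6 and 22.5 FPKM in the control samples, 22.2 and 19.6 FPKM after heat stress, and 22.0 and 22.3 FPKM after heat stress with NMN. These sums overlapped between all groups. The share of DNAJB1 in the DNAJB sum went from 56.8% and 53.1% in the control samples to 37.6% and 42.9% after heat stress, and 33.2% and 31.3% after heat stress with NMN.

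The DNAJA sum was almost that of DNAJA1, which took between 94.6% and 98.7% of it in every sample. It was 57.8 ± 1.13 FPKM in the control group, 59.9 ± 6.53 FPKM after heat stress and 64.5 ± 1.08 FPKM after heat stress with NMN (SD, n = 2 each), with heat-stressed samples on both sides of the control samples (exact permutation P = 1). Against NMN-supplemented oocytes the exact permutation P was 0.667 for heat-stressed and 0.333 for control oocytes. The DNAJC sum was 56.8 ± 4.14 FPKM in the control group, 54.8 ± 7.48 FPKM after heat stress and 46.4 ± 1.41 FPKM after heat stress with NMN (SD, n = 2 each), of which DNAJC9 made up between 51.3% and 59.9%. Heat-stressed and control samples overlapped (exact permutation P = 1), and both NMN-supplemented samples were below all others (exact permutation P = 0.333 against either group). In control oocytes DNAJA1 was at 2.02 and 2.18 times the level of DNAJB1, and the difference between the leading genes of the subfamilies widened to 4.02 and 4.29 times in heat-stressed and 5.90 and 6.12 times in NMN-supplemented oocytes.

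**Figure D4:**
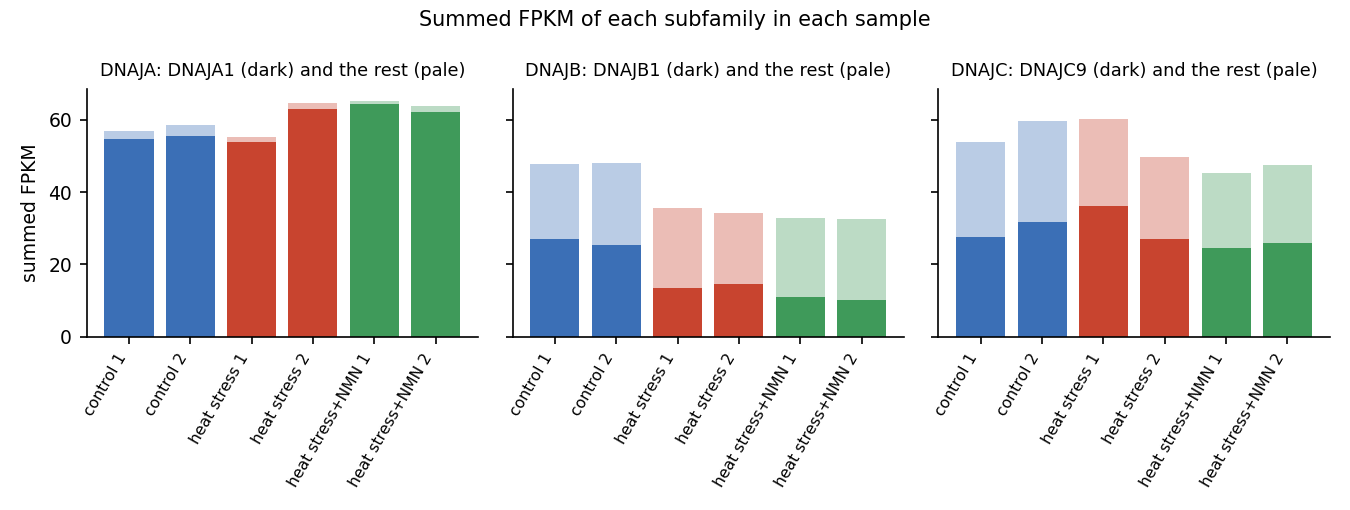
Summed FPKM of the DNAJA, DNAJB and DNAJC genes in each of the 6 samples, with the leading gene of each subfamily in dark colour and all its other members in pale colour. The DNAJB bars drop from about 47.8 FPKM in the control samples to between 32.4 and 35.6 FPKM in the heated samples, and the pale part that excludes DNAJB1 stays between 19.6 and 22.5 FPKM.

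The other 29 members had a mean below 1 FPKM and were not tested. Of these, 7 lay between 0.5 and 1 FPKM. They were DNAJA2 (0.907 FPKM), a cytosolic class A partner of HSP70, DNAJC1 (0.886 FPKM) and DNAJC16 (0.760 FPKM) of the endoplasmic reticulum, DNAJC24 (0.818 FPKM), which acts in the synthesis of diphthamide, DNAJB13 (0.664 FPKM), known from cilia and sperm tails, DNAJC12 (0.591 FPKM), a partner of aromatic amino acid hydroxylases, and DNAJA3 (0.531 FPKM) of mitochondria. A further 14 had means between 0.1 and 0.5 FPKM, 5 lay above 0 but under 0.1 FPKM, and DNAJB7, DNAJB8 and DNAJC5G were listed at 0 in all 6 samples. DNAJA2 had 0.944 and 1.76 FPKM in the control samples, 0.696 and 0.682 FPKM after heat stress, and 0.452 and 0.903 FPKM after heat stress with NMN. DNAJB13, whose listed locus also holds UCP2, had 0.977 and 1.19 FPKM in the control samples, 0.570 and 0.554 FPKM after heat stress, and 0.384 and 0.310 FPKM after heat stress with NMN, in steps without overlap.

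The HSP70 genes, which DNAJ proteins serve, were described from a list of 12 genes, of which 10 were matched and 7 were tested. With heat stress 3 of the 7 had an unadjusted limma P under 0.05, 1 higher and 2 lower, and with NMN 2 did, both lower, against the same shares of all genes as above. The medians were −0.16 and −0.28. Between NMN-supplemented and control oocytes 3 of the 7 were lower (HSPA1L, HSPA5 and HSPA8), with a median of −0.38, against 41.3% of all genes, 15.7% lower. HSPA8, the constitutive HSP70 of the cytosol, had 40.1 and 46.3 FPKM in the control samples, 37.7 and 39.0 FPKM after heat stress, and 15.0 and 17.6 FPKM after heat stress with NMN. It did not pass the threshold with heat stress (log2 fold change −0.16, SE 0.13, adjusted P = 0.483) and was lower with NMN (log2 fold change −1.19, SE 0.13, limma adjusted P = 0.192). HSPA5, or BiP, the HSP70 of the endoplasmic reticulum, had 41.6 and 48.4 FPKM in the control samples, 29.0 and 33.7 FPKM after heat stress, and 25.6 and 24.9 FPKM after heat stress with NMN (log2 fold change with heat stress −0.51, SE 0.13, limma adjusted P = 0.139). HSPA6, a strictly inducible HSP70, was the gene that was higher with heat stress (log2 fold change 0.43, limma adjusted P = 0.219), and it was lower with NMN (log2 fold change −0.65, limma adjusted P = 0.278). HSPA1L was lower with heat stress (log2 fold change −0.51, limma adjusted P = 0.130), but it shares its locus with HSP70.2, a related inducible HSP70 gene. HSP70.2 had 582 and 574 FPKM in the control samples, 368 and 442 FPKM after heat stress, and 449 and 431 FPKM after heat stress with NMN. Fragments of one gene may be counted for the other. HSP70.2 was not on the list and was chosen after its values were seen, with a log2 fold change of −0.52 (SE 0.13, limma adjusted P = 0.137).

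The nucleotide exchange factors comprised 14 genes, of which 7 were tested. With heat stress 1 of them, GRPEL1, had an unadjusted limma P under 0.05 and was lower, and with NMN 2 were higher and 1 lower, with medians of −0.0019 and 0.26. Between NMN-supplemented and control oocytes 2 were higher, HSPA4L and GRPEL2. Of all genes, 22.8%, 13.6% and 41.3% passed in these comparisons. GRPEL1, the exchange factor of mitochondrial HSP70, had 14.0 ± 0.178 FPKM in the control group, 10.2 ± 1.21 FPKM after heat stress and 12.8 ± 0.0738 FPKM with NMN (SD, n = 2 each). Its log2 fold change was −0.43 with heat stress (limma adjusted P = 0.149) and 0.31 with NMN (limma adjusted P = 0.360). HSPH1, the HSP110 that drives disaggregation together with HSP70 and class B J proteins, had a log2 fold change of 0.32 with heat stress, which did not pass the threshold (limma adjusted P = 0.304), and −0.49 with NMN (limma adjusted P = 0.350). Of 4 further J-domain genes whose names fall outside the DNAJ series, HSCB, the iron-sulfur cluster co-chaperone of mitochondria, was the one tested. It had 1.45 and 1.26 FPKM in the control samples, 1.42 and 2.10 FPKM after heat stress, and 2.39 and 2.19 FPKM after heat stress with NMN. HSCB passed the unadjusted threshold as higher for NMN against control only (log2 fold change 0.48, limma adjusted P = 0.0802). The heat shock factors were below the limit. HSF1, which activates heat shock genes, ranged from 0.0862 to 0.403 FPKM over the 6 samples, and 3 of the 4 factors were matched, all with a mean under 1 FPKM.

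**Figure D5:**
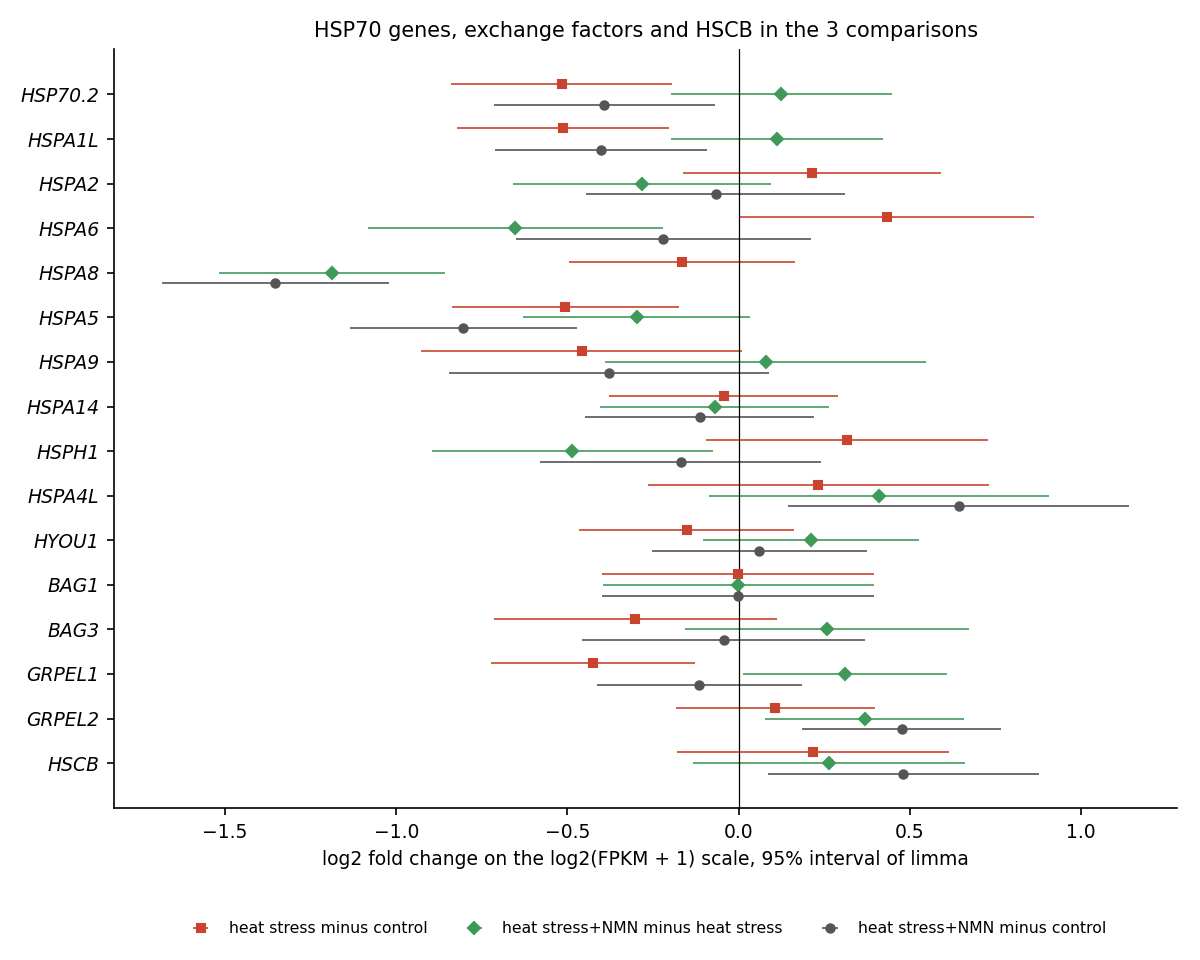
Log2 fold changes on the log2(FPKM + 1) scale of HSP70.2, the 7 tested HSP70 genes of the list, the 7 tested nucleotide exchange factors and HSCB in the 3 comparisons, with 95% intervals from limma (squares heat stress minus control, diamonds heat stress+NMN minus heat stress, circles heat stress+NMN minus control). HSPA8 lies at −1.19 and −1.35 where NMN-supplemented oocytes were compared, and GRPEL1 lies on opposite sides of 0 for heat stress and for NMN.

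Markers were checked because other mRNAs moved with the same groups. Of 15 oocyte markers, 13 had a mean of at least 1 FPKM, and the summed level of the list was 3520 to 3708 FPKM in the control samples, 3464 to 3470 FPKM after heat stress and 3071 to 3318 FPKM after heat stress with NMN. With heat stress 5 of the 13 had an unadjusted limma P under 0.05, against 22.8% of all genes (12.7% higher and 10.1% lower). Of these 5, 4 were lower, among them the zona pellucida gene ZP3 (log2 fold change −0.89), and WEE2 was higher (log2 fold change 0.45). With NMN against heat stress 3 of the 13 passed, 1 higher and 2 lower, against 13.6% of all genes (7.15% higher and 6.45% lower). Between NMN-supplemented and control oocytes 9 of the 13 passed, 2 higher and 7 lower, against 41.3% of all genes (25.6% higher and 15.7% lower). An adjusted P under 0.05 was found for 6 of the 13, against 21.5% of all genes, and the median was −0.51. Of 16 markers of cumulus and granulosa cells, which surround the oocyte, 15 were matched and only INHBA had a mean of at least 1 FPKM. Their summed level was 13.9 to 17.4 FPKM in the control samples, 8.52 to 10.7 FPKM after heat stress and 5.54 to 11.5 FPKM after heat stress with NMN. INHBA alone had 16.4 and 13.2 FPKM, 10.2 and 6.44 FPKM, and 4.35 and 10.2 FPKM in these groups, and for NMN against control it passed the unadjusted threshold as lower (log2 fold change −1.02, limma adjusted P = 0.109). The other 14 markers summed to 1.05 and 0.763 FPKM in the control samples, 0.557 and 2.08 FPKM after heat stress, and 1.19 and 1.32 FPKM after heat stress with NMN. AMH was listed at 0 in all samples and PTX3 in 5 of them. The mitochondrial genome took 66.4% and 61.7% of the summed FPKM in the control samples, 62.4% and 71.6% after heat stress, and 74.2% and 74.7% after heat stress with NMN, so both NMN-supplemented samples were above all others. The part of these levels in the changes of the DNAJ genes was not tested.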

How the data were processed

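RNA-seq was analysed from 6 samples of porcine oocytes, grouped by the treatment label. According to the methods, reads were trimmed with cutadapt and aligned with tophat2 to susScr11, and the submitters' processing notes name Cufflinks 2.2.1, Cuffnorm and Cuffdiff without saying which gave the values. The authors deposited FPKM values per gene and sample, which were used here. Their lists of changed genes and the fold changes, P-values and q-values in the table were not used. The annotation behind the values is not given in the sources used here.

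Here, 1 FPKM was added before taking log2, so a fold change of a low gene is understated. One limma model (version 3.58.1, R 4.3.3, trended moderation) covered the 3 groups, all 6 samples and the 4713 genes averaging at least 1 FPKM, and Benjamini-Hochberg adjustment ran over these genes. A change is an unadjusted P under 0.05, and the adjusted P is printed. The model was tested on simulated data first. Sums of FPKM were compared with two-sided exact permutation tests. The name of every member matched a gene of the RefSeq annotation of Sscrofa11.1, which lay inside the locus given in the table, and all 432 sequence names of the table were found in that build. Upstream sequences were read from this RefSeq genome. Python 3.11.15 was used for the other steps.

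The members, the gene lists and the tests were chosen with earlier results of these data known. Members with a mean of at least 1 FPKM were to be described by sample, those from 0.5 FPKM or at 0 in all samples to be named, and, from the other lists, HSPA8, HSPA5, HSPH1, HSF1 and genes with a P under 0.05 with heat stress, the rest by counts. HSPA1A, also to be named, was not matched. ORMDL2, GRPEL1 with NMN, HSCB, HSPA4L, GRPEL2, WDR61, AMH, PTX3, INHBA, ZP3 and WEE2 were added with their values known. The alternatives were other minimum FPKM, a pseudocount of 0.1, quantile, median and nuclear-sum scaling, the replicate block, no trend, only the compared groups and leaving out each sample.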

Additional observations from a re-analysis of the deposited data

How the results depend on the processing

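The count of members with an unadjusted P under 0.05 changed with the minimum FPKM, which sets how many members are tested. With heat stress it was 5 of 15 members, 9 of 36 at a minimum mean of 0.1 FPKM (1 higher and 8 lower), 10 of 41 with every gene above 0 FPKM and 2 of 6 at a minimum of 5 FPKM, where 22.8%, 16.0%, 11.6% and 28.0% of all genes passed. With NMN against heat stress it was 2, and 4, 5 and 1 under the same alternatives. It was 0 after scaling to the same nuclear FPKM sum. With NMN against control it was 6, and 11, 11 and 2. Of all genes, 9.96% (0.1 FPKM), 7.58% (above 0) and 15.9% (5 FPKM) passed with NMN against heat stress, and 27.8%, 18.0% and 47.3% with NMN against control. With an adjusted P it was 0, 0 and 4 members. Leaving out single samples changed the counts of members and of all genes. In these fits the sample left alone in its group was assumed to vary like the other groups.

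For the DNAJB sum, leaving out each sample gave differences of −13.6 to −12.2 FPKM with heat stress, −2.93 to −1.57 FPKM with NMN and −15.4 to −14.9 FPKM for NMN against control. The DNAJA sum ranged over −2.54 to 6.69, −0.0146 to 9.21 and 5.87 to 7.47 FPKM, and the DNAJC sum over −7.23 to 3.35, −13.8 to −3.19 and −13.4 to −7.50 FPKM. The DNAJA difference changed sign without heat-stressed replicate 2 (heat stress) or replicate 1 (NMN), and that of DNAJC with heat stress without control replicate 2 (0.989 FPKM) or heat-stressed replicate 2.

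Among single members, 647 values under the alternatives kept their direction and their side of the threshold, 21 were no longer past it, 7 were newly past it and 18 changed sign, all 18 in members that did not pass the threshold in that comparison. With heat stress the log2 fold change was −0.034 for DNAJA1, 0.015 for DNAJC21 and 0.059 for DNAJC8 without heat-stressed replicate 2, 0.015 for DNAJC27 and −0.028 for DNAJC9 without control replicate 1, 0.067 for DNAJC8 without control replicate 2 and −0.13 for DNAJC9 without heat-stressed replicate 1. With NMN it was −0.059 for DNAJB2 without heat-stressed replicate 2 and −0.023 for DNAJC27 without NMN-supplemented replicate 2. For NMN against control it was 0.0016 for DNAJB6 and 0.00093 for DNAJB9 after nuclear-sum scaling. Without control replicate 2 it was 0.092 for DNAJB6, −0.040 for DNAJC18 and 0.028 for DNAJC7, and without control replicate 1 it was 0.056 for DNAJC27. Without NMN-supplemented replicate 1 it was −0.025 for DNAJC18 and 0.0097 for DNAJC27, and without replicate 2 it was −0.030 for DNAJC21. The cause was not tested. The opposite ends of these leave-one-out ranges were 0.19 for DNAJA1, −0.11 for DNAJC21, −0.20 for DNAJC27, −0.29 for DNAJC8 and 0.27 for DNAJC9 with heat stress, 0.26 for DNAJB2 and 0.10 for DNAJC27 with NMN, and −0.12 for DNAJB6, 0.079 for DNAJC18, 0.074 for DNAJC21, −0.16 for DNAJC27 and −0.29 for DNAJC7 for NMN against control.

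The labels do not say whether same-numbered samples belong together. Deviations of same-numbered samples correlated at −0.032 (control and heat stress), −0.014 (control and NMN) and 0.0080 (heat stress and NMN). These values showed no pairing, but with 2 samples per group they cannot exclude shared collections. With the replicate number as a block, 5, 2 and 5 members had a P under 0.05 in the 3 comparisons. Of all genes, 19.9%, 11.2% and 38.5% did. In that fit DNAJC30 for NMN against control had an adjusted P = 0.0545 (limma).

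With 2 samples in each group and no read counts, the depth behind low FPKM and the spread of a group are poorly known. Over all tested genes the median was 0.11 (log2) for NMN against control, and for NMN against heat stress it moved from 0.078 to 0.12 with nuclear-sum scaling.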

Other observations

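When genes with a mean of at least 0.1 FPKM were fitted with limma, 36 members could be tested, and several of those under 1 FPKM had an unadjusted P under 0.05. Of all 11651 genes in that fit, 16.0% passed with heat stress, 9.96% with NMN against heat stress and 27.8% with NMN against control. DNAJA4, a cytosolic class A member, had 0.874 and 0.559 FPKM in the control samples, 0.341 and 0.381 FPKM after heat stress, and 0.0232 and 0.117 FPKM after heat stress with NMN, in steps without overlap. WDR61, listed at the same locus, had a mean of 0.731 FPKM in control, 0.286 FPKM after heat stress and 0.253 FPKM with NMN, and its part in the values of DNAJA4 was not tested. DNAJA4 passed the unadjusted threshold in all 3 comparisons, with a log2 fold change on the log2(FPKM + 1) scale of −0.33 with heat stress (adjusted P = 0.288), −0.35 with NMN (adjusted P = 0.477) and −0.68 for NMN against control (adjusted P = 0.0541). DNAJB13, known from cilia and sperm tails, passed it with heat stress (log2 fold change −0.41, adjusted P = 0.201) and for NMN against control (−0.63, adjusted P = 0.0515). DNAJC11, a protein of the mitochondrial outer membrane, passed it in the same comparisons, at −0.17 (adjusted P = 0.270) and −0.22 (adjusted P = 0.0892). DNAJC5, the cysteine string protein of secretory vesicles, passed it at −0.23 both for NMN against heat stress (adjusted P = 0.395) and for NMN against control (adjusted P = 0.0835). DNAJC1, of the endoplasmic reticulum, was higher for NMN against control, at 0.31 (adjusted P = 0.173). No read counts stand behind these low levels, so their counting error is unknown.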
